A study of Mus musculus with 12 samples.

Results

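The clustered protocadherin genes of the mouse were followed in RNA-seq libraries from the cortices of 12 mice at postnatal day 16. The genes were taken by symbol, as every row of the expression table named Pcdha, Pcdhb or Pcdhg followed by a letter and number or a number alone, and 58 of the 23354 symbols in the table met this rule. They lie in 3 clusters on chromosome 18. The RefSeq annotation of GRCm38.p6, which has the coordinates of mm10, places 14 alpha genes at chr18:36930285-37188897, 22 beta genes at chr18:37264998-37521419 and 22 gamma genes at chr18:37661775-37841873, spans of 258.613, 256.422 and 180.099 kb. Within the alpha cluster, 12 genes are variable genes and 2 are C-type genes (Pcdhac1 and Pcdhac2). Within the gamma cluster, 12 genes belong to the A group, 7 to the B group and 3 to the C-type (Pcdhgc3, Pcdhgc4 and Pcdhgc5), and RefSeq lists Pcdhgb8 as a transcribed pseudogene.

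The mice formed 4 groups of 3 on the C57BL/6 background, each group compared with the littermates of its line. Dnmt1 conditional knockout (CKO) mice carried Olig1 cre/+ and Dnmt1 flox/flox, and their controls were Olig1 +/+ and Dnmt1 flox/flox. Dnmt3a CKO mice carried Olig1 cre/+ and Dnmt3a flox/flox, and their controls were Olig1 +/+ and Dnmt3a flox/flox. The floxed alleles were therefore shared by CKO and control mice, and only the CKO mice had cre in place of 1 copy of Olig1, a transcription factor gene of the oligodendrocyte lineage. Cre was aimed at that lineage while RNA was taken from whole cortex, so that fewer cells of a type and less RNA per cell cannot be told apart in any level given here, and cells outside the lineage were not the target of the deletion.

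Clustered protocadherins are cadherin-like proteins of the cell surface that bind their own kind on a facing cell. Each neuron expresses a small and partly random set of them, which gives it a surface identity used to tell its own branches from those of other neurons. In the alpha and gamma clusters every variable exon has its own promoter and is spliced to constant exons shared by the whole cluster, whereas each beta gene is a single exon with no shared part. Promoter choice is known to depend on CTCF and cohesin, which fold promoters onto distant enhancers, and on DNA methylation of the promoters, which is laid down early in development largely by Dnmt3b. The C-type genes are expressed more evenly from cell to cell than the others. Maintenance of methylation patterns through cell division is the task of Dnmt1, and Dnmt3a adds methylation to sites that have none.

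The level of each targeted gene was compared with the labels first. Dnmt1 was at 10.6, 10.2 and 9.78 FPKM (fragments counted on a gene, adjusted for its length and for library size) in Dnmt1 controls and at 7.26, 9.11 and 9.09 FPKM in the Dnmt1 CKO libraries, which were all lower. Dnmt3a was at 31.1, 16.9 and 28.7 FPKM in Dnmt3a controls and at 13.6, 14.2 and 15.4 FPKM in the Dnmt3a CKO libraries. The library labelled Dnmt3a Control replicate 2 thus stood near the CKO level, and several results below are also given without it. Olig1 was at 50.9, 46.6 and 42.0 FPKM in Dnmt1 controls and 20.6, 21.9 and 18.4 in Dnmt1 CKO mice, and at 48.4, 49.8 and 44.1 FPKM in Dnmt3a controls and 30.6, 38.8 and 32.2 in Dnmt3a CKO mice. On Olig1, Dnmt3a Control replicate 2 therefore stood with the controls. All 10 neuron markers, led in level by Snap25, were expressed in every library.

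All but a few of the clustered protocadherins were expressed at low levels in the cortex, with 3 of the 5 C-type genes far above the rest. Of the 58 members, 3 had a mean over the 12 libraries above 10 FPKM, 45 lay between 1 and 10, 8 between 0.5 and 1, and 2 below 0.5 FPKM. FPKM is a level per transcript length, so members of unlike length can be set side by side on it. The 3 highest, Pcdhgc5, Pcdhgc3 and Pcdhac2, averaged 39.1, 30.4 and 18.2 FPKM. The 2 lowest, Pcdha8 and Pcdhb1, averaged 0.221 and 0.0518 FPKM, and Pcdhb1 was listed at 0 in 1 library.

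**Figure D1:**
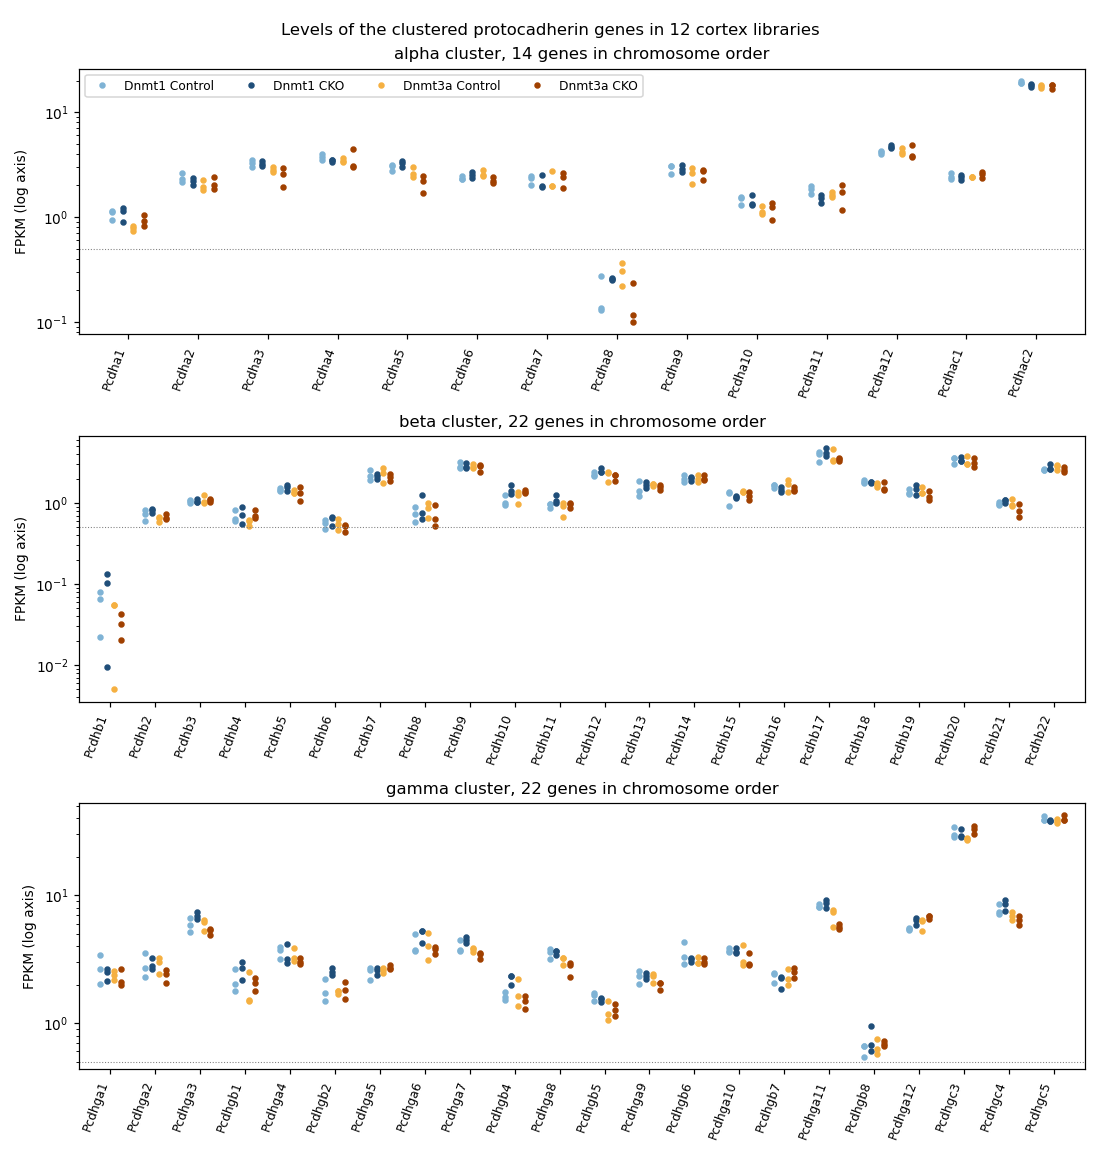
FPKM on a log axis for each of the 58 members, 1 panel per cluster in chromosome order, with 12 points a gene (3 mice in each of 4 groups, coloured by group). The C-type genes Pcdhac2, Pcdhgc3 and Pcdhgc5 stand highest, Pcdha8 and Pcdhb1 lie under the dotted line at 0.5 FPKM, and the 4 groups mostly share a range at each gene (the single 0 of Pcdhb1 is drawn at 0.005).

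The order of the members was much the same in every cortex. Over the 66 pairs of libraries, the Spearman correlation of the levels of the 58 members was at least 0.936 with a median of 0.965, and within clusters the lowest value was 0.811 for alpha, 0.916 for beta and 0.897 for gamma. These are descriptions across genes of libraries made from the same tissue, and no p is given for them. Of the 57 pairs of neighbours in the order of mean level, 52 had ranges that overlapped between libraries. The 5 pairs that did not were Pcdhgc5 above Pcdhgc3, Pcdhgc3 above Pcdhac2, Pcdhac2 above Pcdhgc4, Pcdhga3 above Pcdha12, and Pcdhb6 above Pcdha8. The top of the ranking is thus fixed, whereas most adjacent members below it cannot be ordered by their ranges, the lowest pair (Pcdha8 above Pcdhb1) included. Within each of the 12 libraries, however, Pcdha8 was above Pcdhb1.

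In the alpha cluster the variable genes ran from 0.221 FPKM (Pcdha8) to 4.31 FPKM (Pcdha12), with a median of 2.33. Pcdha12, the last variable gene before the C-type exons, was at 4.03, 4.16 and 4.29 FPKM in Dnmt1 controls, 4.88, 4.57 and 4.66 in Dnmt1 CKO mice, 4.51, 4.02 and 4.20 in Dnmt3a controls and 3.81, 3.75 and 4.86 in Dnmt3a CKO mice. Of the C-type pair, Pcdhac1 averaged 2.45 FPKM, within the range of the variable genes. Pcdhac2, known for the spacing of serotonergic axons, was at 20.02, 19.2 and 18.9 FPKM in Dnmt1 controls, 17.6, 18.6 and 18.3 in Dnmt1 CKO mice, 18.1, 17.7 and 17.0 in Dnmt3a controls and 18.1, 16.6 and 18.1 in Dnmt3a CKO mice. Pcdhac2 varied least of all members between mice, with a coefficient of variation within groups of 3.61%. The serotonergic and olfactory neuron markers Tph2, Slc6a4, Fev and Omp summed to at most 1.01 FPKM in any library.

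In the beta cluster the 22 genes had a median of 1.40 FPKM. The highest was Pcdhb17, at 4.03, 4.31 and 3.21 FPKM in Dnmt1 controls, 3.82, 4.78 and 4.09 in Dnmt1 CKO mice, 3.42, 3.27 and 4.63 in Dnmt3a controls and 3.46, 3.33 and 3.59 in Dnmt3a CKO mice. Its ranges overlapped in all comparisons. The lowest, Pcdhb1, is the first gene of the cluster and is known to lack the promoter element that CTCF binds in most other members, as do Pcdhac2, Pcdhgc4 and Pcdhgc5. Lack of that element thus went with both the lowest level of the 58 and the highest.

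In the gamma cluster the C-type genes led. Pcdhgc5 was at 38.6, 38.8 and 41.9 FPKM in Dnmt1 controls, 38.4, 38.8 and 38.2 in Dnmt1 CKO mice, 36.9, 39.5 and 37.9 in Dnmt3a controls and 42.4, 39.1 and 39.2 in Dnmt3a CKO mice, and the groups overlapped in each comparison. In the Dnmt3a line and between the controls that overlap rested on Dnmt3a Control replicate 2, at 39.5 FPKM, since the other two Dnmt3a controls lay below every Dnmt3a CKO and Dnmt1 control library. Pcdhgc4, the isoform known to be needed for neuron survival, averaged 7.37 FPKM, the least of the C-type gamma genes. The A group ran from 2.22 FPKM (Pcdhga9) to 7.36 FPKM (Pcdhga11), with a median of 3.41, and the B group from 0.678 FPKM (Pcdhgb8, the pseudogene) to 3.195 FPKM (Pcdhgb6), with a median of 1.98.

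Pcdhga11 was at 8.56, 8.09 and 8.10 FPKM in Dnmt1 controls, 9.17, 8.75 and 7.92 in Dnmt1 CKO mice, 7.72, 5.63 and 7.37 in Dnmt3a controls and 5.45, 5.96 and 5.64 in Dnmt3a CKO mice. The 6 libraries of the Dnmt1 line all lay above those of the Dnmt3a line, and Dnmt3a Control replicate 2 was among the Dnmt3a CKO values. Pcdhgb6 was at 4.29, 2.91 and 3.30 FPKM in Dnmt1 controls, 3.004, 3.26 and 3.16 in Dnmt1 CKO mice, 2.98, 3.32 and 2.93 in Dnmt3a controls and 3.04, 2.92 and 3.22 in Dnmt3a CKO mice, and its groups overlapped in every comparison.

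The spread between mice can be set beside an estimate of counting error for the beta genes. The within-group coefficient of variation had a median of 10.99% over the 58 members and was under 20% for 54 of them. From the size of single-fragment steps in rarely hit genes the libraries were estimated to hold 37300000 to 43800000 fragments each (3 significant digits), and this estimate is approximate, since 60.8 to 75.4% of the low values used lay within 0.15 of a whole number of fragments. At that depth the 22 beta genes, which as single exons are the simplest to count, had a median of 215 fragments each, from 4.59 for Pcdhb1 to 479. The counting error then expected had a median of 6.80% against 10.99% observed, and the observed value was the larger for 20 of the 22, by 1.06 to 3.13 times. No test was made of these ratios, and with 3 mice a group those near 1 cannot be told from counting error. Alpha and gamma members are less certain, because much of their sequence is shared. Of the 50-base words in their transcripts, 54.8 to 63.9% for variable alpha genes (10 of the 12 could be matched) and 26.9 to 65.3% for gamma genes occur in another member too, and the quantification had to divide fragments from such stretches among them. For beta genes this share was at most 11.99%.

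The sum of each cluster was nearly the same in CKO and control mice. The alpha genes summed to 51.0, 50.3 and 49.9 FPKM in Dnmt1 controls against 48.8, 50.1 and 48.8 in Dnmt1 CKO mice, and to 46.9, 45.4 and 47.0 in Dnmt3a controls against 45.5, 44.0 and 47.1 in Dnmt3a CKO mice. The beta genes summed to 36.1, 33.5 and 35.2 FPKM against 35.2, 38.2 and 37.2 in the Dnmt1 line, and to 33.1, 34.1 and 38.1 against 35.4, 31.6 and 33.3 in the Dnmt3a line. The gamma genes summed to 148, 139 and 137 FPKM against 140, 151 and 142 in the Dnmt1 line, and to 133, 130 and 131 against 139, 136 and 130 in the Dnmt3a line. CKO and control libraries overlapped in all 3 clusters of both lines.

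Within the clusters, the balance of subfamilies differed between groups by a few percent of the cluster sum. The C-type gamma genes made up 55.6% ± 1.73 (SD, n = 3) of the gamma sum in Dnmt1 controls and 53.6% ± 0.175 in Dnmt1 CKO mice, against 55.1% ± 0.996 in Dnmt3a controls and 58.7% ± 0.753 in Dnmt3a CKO mice. By library this share was 54.3, 56.2 and 54.7% in Dnmt3a controls and 59.3, 59.0 and 57.9% in Dnmt3a CKO mice, without overlap. Its members did not stand alike, since mean FPKM went from 27.5 to 32.9 for Pcdhgc3, from 38.1 to 40.2 for Pcdhgc5 and from 6.92 to 6.36 for Pcdhgc4, and the astrocyte and neuron marker sums given with Pcdhgc3 below were higher in the same CKO mice. The A group of the same cluster summed to 46.9, 45.1 and 47.8 FPKM in Dnmt3a controls and to 43.2, 43.6 and 42.2 FPKM in Dnmt3a CKO mice, also without overlap. Without Dnmt3a Control replicate 2 the mean control values were 54.5% for the C-type share and 47.4 FPKM for the A-group sum. In the Dnmt1 line the C-type gamma share stood the other way, at 55.4, 54.0 and 57.4% in controls and 53.7, 53.6 and 53.4% in the CKO, without overlap. The summed level of these C-type genes did overlap there, at 81.7, 74.9 and 78.5 FPKM in controls and 75.3, 81.2 and 75.6 FPKM in the CKO. The B-group share was higher in each Dnmt1 CKO library than in any control, at 9.94, 9.81 and 9.30% against 10.3, 10.3 and 10.4%. The A-group sum overlapped in the Dnmt1 line, at 51.2, 50.1 and 45.4 FPKM in controls and 50.5, 54.5 and 51.3 FPKM in the CKO. Pcdhac2 and Pcdhac1 together took 43.3% ± 1.03 of the alpha sum in Dnmt1 controls and 41.8% ± 0.960 in Dnmt1 CKO mice, and both this share and their summed level (22.7, 21.4 and 21.3 FPKM against 19.8, 21.1 and 20.7) were lower in the CKO without overlap. These sums and shares were read as descriptions, without a test.

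**Figure D2:**
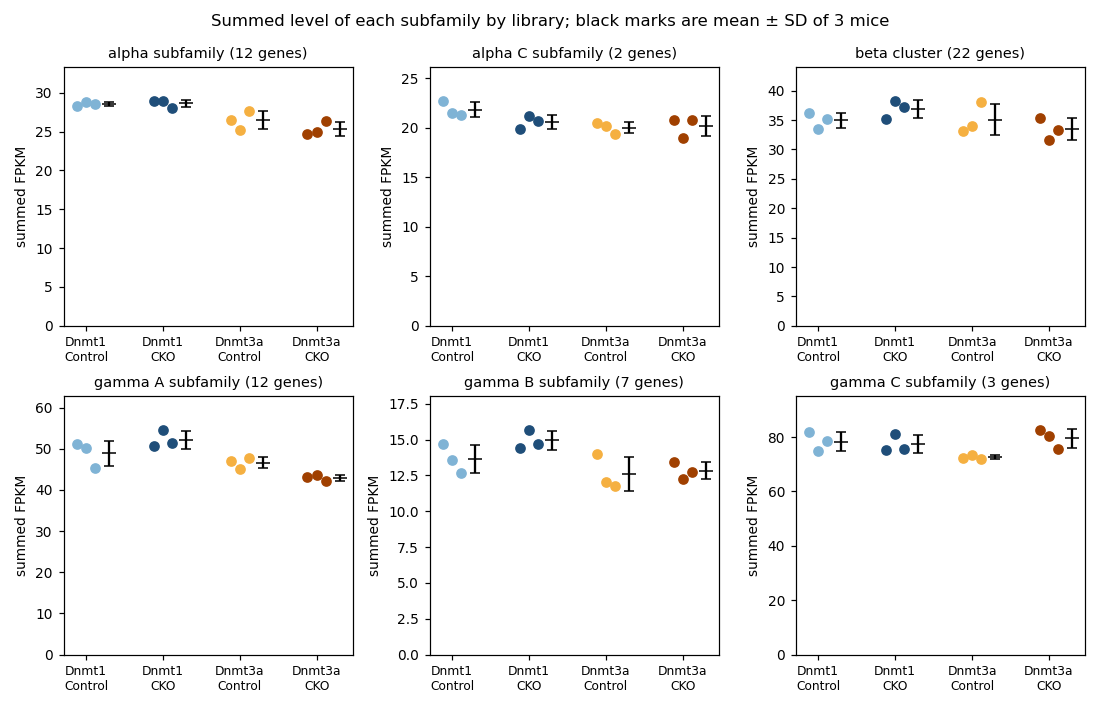
Summed FPKM of each subfamily in each of the 12 libraries, from 0, with the mean and SD of 3 mice beside the points. In the Dnmt3a line the gamma A sums of the CKO (42.2 to 43.6) lie below those of the controls (45.1 to 47.8), and the gamma C sums of the CKO (75.5 to 82.6) lie above those of the controls (71.9 to 73.3). The gamma C sums of the Dnmt1 controls (74.9 to 81.7) also lie above those of the Dnmt3a controls.

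Loss of Dnmt1 was compared with its littermate controls to ask whether members moved with a gene that maintains methylation. No member passed the test used, limma on log2(FPKM + 0.1) over the 14115 rows that averaged 0.5 FPKM or more, at a false discovery rate (FDR) of 10%. Of the 56 members tested (all but Pcdha8 and Pcdhb1) 0 were called, where 3.15% of all rows were. At an unadjusted p under 0.05 there were 7 members (background 15%), 5 higher in the CKO (4.61% of all rows) and 2 lower (10.4%). Leaving out 1 library gave 3 to 8 members, with 3 without Dnmt1 CKO replicate 2 (13.0% of all rows). There were 4 without Dnmt1 Control replicate 2 or Dnmt1 CKO replicate 3 (11.2 and 10.9% of all rows). The replicate number as a block gave 3 (12.1% of all rows). The 95% interval of the log2 fold change lay within 1 of no change, that is within 2-fold, for all 56 members, and within 0.5 for 46 of them. The widest interval reached 0.63 to either side of its estimate.

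The member nearest to a call was Pcdhgb4, a B-group gene of the gamma cluster. Pcdhgb2 of the same group came next, close to Pcdhga12 and Pcdha12 (limma adjusted p = 0.219, 0.221 and 0.225). Pcdhgb4 was at 1.52, 1.61 and 1.74 FPKM in Dnmt1 controls and 2.35, 2.35 and 1.97 in Dnmt1 CKO mice, so that all CKO libraries lay above all controls. Its log2 fold change was 0.43 (SE 0.097, 95% interval 0.19 to 0.67; limma adjusted p = 0.123). With limma's robust variance estimate its adjusted p was 0.0738, and after quantile normalization 0.0952, both inside the 10% FDR. Pcdhgb2 had the highest log2 fold change of all members. It went from 2.20, 1.72 and 1.496 FPKM to 2.53, 2.71 and 2.36 FPKM, a log2 fold change of 0.48 (SE 0.146; limma adjusted p = 0.219). The groups did not overlap for Pcdhgb2 either, and without Dnmt1 Control replicate 1, the highest of its controls, the log2 fold change was 0.62 and the limma adjusted p 0.0907.

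Over the 7 B-group genes the log2 fold change ran from −0.13 (Pcdhgb6) to 0.48, with 4 above 0 and 3 below and a median of 0.20. The sign of Pcdhgb6 rested on 1 library, since its log2 fold change ran from −0.25 to 0.02 with any 1 left out. Pcdhgb1 and Pcdhgb8 were the others above 0, at 0.28 and 0.20. Among alpha genes Pcdha11 had the lowest value of all members, with 1.67, 1.83 and 1.99 FPKM in the controls and 1.64, 1.52 and 1.37 in the CKO and a log2 fold change of −0.26 (SE 0.097; limma adjusted p = 0.294). Its neighbour Pcdha12 stood the other way, at a log2 fold change of 0.17 (SE 0.054; limma adjusted p = 0.225), and the CKO libraries of both genes were apart from their controls. Pcdhac2, at −0.09 (SE 0.036; limma adjusted p = 0.326), was lower in each CKO library than in any control.

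Counted over the members, 11 of 56 had CKO and control values that did not overlap, where 20.8% of all rows did. They divided into 8 with higher CKO levels, beside 6.38% of all rows, and 3 with lower, beside 14.4%. By sign alone 34 log2 fold changes lay above 0 and 22 below, with a median of 0.03 against −0.02 over all rows, of which 41.1% lay above 0. The beta genes had 16 above 0 and 5 below with a median of 0.09, the alpha genes 4 above and 9 below with a median of −0.03. Scaling the libraries by their median ratio moved the sign count of the members to 39 above 0 and 17 below, and leaving out 1 library gave medians from 0.02 (Dnmt1 CKO replicate 2) to 0.06 (Dnmt1 Control replicate 1, with 40 above 0 and 16 below).

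**Figure D3:**
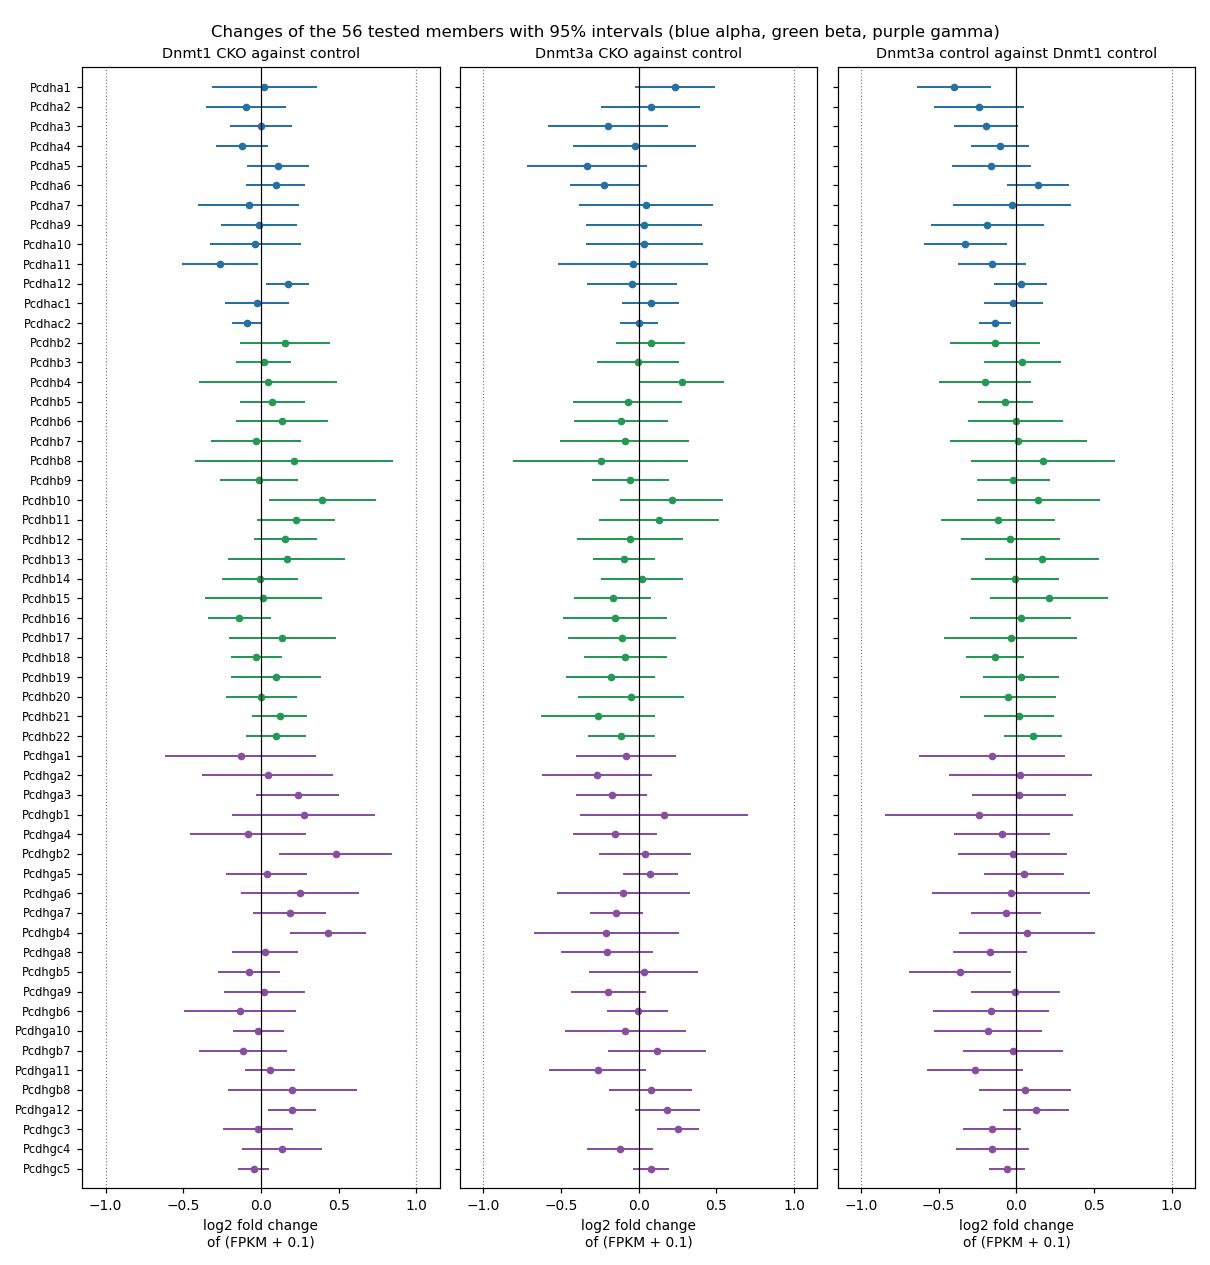
Log2 fold changes of FPKM + 0.1 (points) with 95% intervals (lines) for the 56 tested members in chromosome order, for each CKO against its controls and for the controls against each other. All intervals lie inside the dotted lines at −1 and 1, and the Dnmt1 CKO values of Pcdhgb2 and Pcdhgb4 (0.48 and 0.43) are the farthest to the right in the first panel.

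Loss of Dnmt3a, which adds new methylation, left no member past the threshold either. Limma called 0 of 56 members at 10% FDR in the Dnmt3a line, where 0.0142% of all rows (2 of 14115) were called, so that calls were rare throughout this comparison. At an unadjusted p under 0.05 there were 3 members (background 7.35%). All 56 intervals lay within 1 of no change on the log2 scale and 43 within 0.5. Without Dnmt3a Control replicate 2 the count of calls was again 0, with 5 members at an unadjusted p under 0.05 (background 6.89%). There were 6 such members without Dnmt3a CKO replicate 1 (4.91% of all rows). The count was 2 without Dnmt3a Control replicate 1 (5.31% of all rows) or without Dnmt3a CKO replicate 2 (5.51%) or 3 (12.3%).

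The member with the smallest p was Pcdhgc3, a C-type gene of the gamma cluster, whose proteins are known from astrocytes and the epithelium of the choroid plexus as well as from neurons. It was at 28.1, 27.0 and 27.6 FPKM in Dnmt3a controls and 33.3, 34.9 and 30.4 in Dnmt3a CKO mice, where all 3 lay above every control. The log2 fold change was 0.25 (SE 0.054, 95% interval 0.12 to 0.38; limma unadjusted p = 0.00334, adjusted p = 0.657), and it ranked 54 among the 14115 rows by p. Without Dnmt3a Control replicate 2 it was 0.24 (limma adjusted p = 0.716). In the Dnmt1 line the same gene was at 34.5, 28.6 and 29.4 FPKM in controls and 29.4, 33.1 and 28.7 in the CKO, which overlap.

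Marker levels differed beside Pcdhgc3 in these libraries. The 6 choroid plexus markers, of which Ttr was the most abundant and none was at 0 throughout, summed to 105, 125 and 6.68 FPKM in Dnmt3a controls and 297, 421 and 3.47 in Dnmt3a CKO mice, and all 6 had log2 fold changes above 0 with 0 called. Dnmt3a CKO replicate 3 had the lowest choroid plexus sum of all 12 libraries, and its Pcdhgc3 level of 30.4 FPKM was above the 3 controls. The 8 astrocyte markers, led by Slc1a2, summed to 888, 917 and 904 FPKM in the controls and 956, 1023 and 963 in the CKO without overlap, all 8 with log2 fold changes above 0 and 0 called. The 10 neuron markers summed to 2031, 2099 and 2079 FPKM in the controls and 2153, 2194 and 2169 in the CKO, also without overlap, with 8 log2 fold changes above 0 and 0 called. Their part in the Pcdhgc3 difference was not tested.

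Among the other members, Pcdhb4 had the highest log2 fold change in the Dnmt3a line, going from 0.617, 0.524 and 0.604 FPKM to 0.656, 0.693 and 0.831 FPKM (log2 fold change 0.28, SE 0.109; limma adjusted p = 0.657), or 0.21 without Dnmt3a Control replicate 2. The lowest was that of Pcdha5, which went from 2.40, 2.99 and 2.58 FPKM to 2.44, 1.69 and 2.18 FPKM (log2 fold change −0.33, SE 0.155; limma adjusted p = 0.663), or −0.25 without that library. With any 1 library left out, the log2 fold change of Pcdha5 ran from −0.44 to −0.19. CKO and control values of Pcdhb4 did not overlap, and those of Pcdha5 did. Pcdhga11, the most abundant A-group gene, had a log2 fold change of −0.26 (SE 0.125; limma adjusted p = 0.667), which became −0.40 without Dnmt3a Control replicate 2 (limma adjusted p = 0.705).

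Over all members of the Dnmt3a line, 7 of 56 had groups that did not overlap, where 12.8% of all rows did. There were 4 higher in the CKO (7.33% of all rows) and 3 lower (5.43%). By sign 21 lay above 0 and 35 below, with a median of −0.05 against 0.01 over all rows, of which 53% lay above 0. Of the beta genes 5 lay above 0 and 16 below with a median of −0.09, and of the A group of the gamma cluster 2 above and 10 below with a median of −0.15. Leaving out 1 library gave medians from −0.07 (Dnmt3a CKO replicate 1, with 18 above 0 and 38 below) to −0.01 (Dnmt3a Control replicate 3, with 25 and 31). Without Dnmt3a Control replicate 2 the signs stood at 20 and 36, and 15 of 56 members did not overlap, where 23.2% of all rows did.

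Pcdhga12, the last A-group gene before the C-type exons, was the one member whose CKO and control values were apart in both lines and in the same direction, 1 of 56 where 1.59% of all rows were. Leaving out Dnmt3a Control replicate 2 gave 2 of 56 (3.09% of all rows), the other being Pcdhb10. In opposite directions there were 0 of 56 (0.949% of all rows), or 1 without that library (1.77% of all rows), Pcdhb22, higher in Dnmt1 CKO and lower in Dnmt3a CKO mice than in any control then kept. Pcdhga12 was at 5.44, 5.55 and 5.37 FPKM in Dnmt1 controls and 5.81, 6.42 and 6.62 in Dnmt1 CKO mice, and at 5.28, 6.399 and 6.26 FPKM in Dnmt3a controls and 6.87, 6.56 and 6.92 in Dnmt3a CKO mice. The log2 fold changes of Pcdhga12 were 0.20 (SE 0.061; limma adjusted p = 0.221) and 0.18 (SE 0.083; limma adjusted p = 0.658), the latter 0.23 without Dnmt3a Control replicate 2 (limma adjusted p = 0.718). With any 1 library left out, the value in the Dnmt3a line ran from 0.10 to 0.23.

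**Figure D4:**
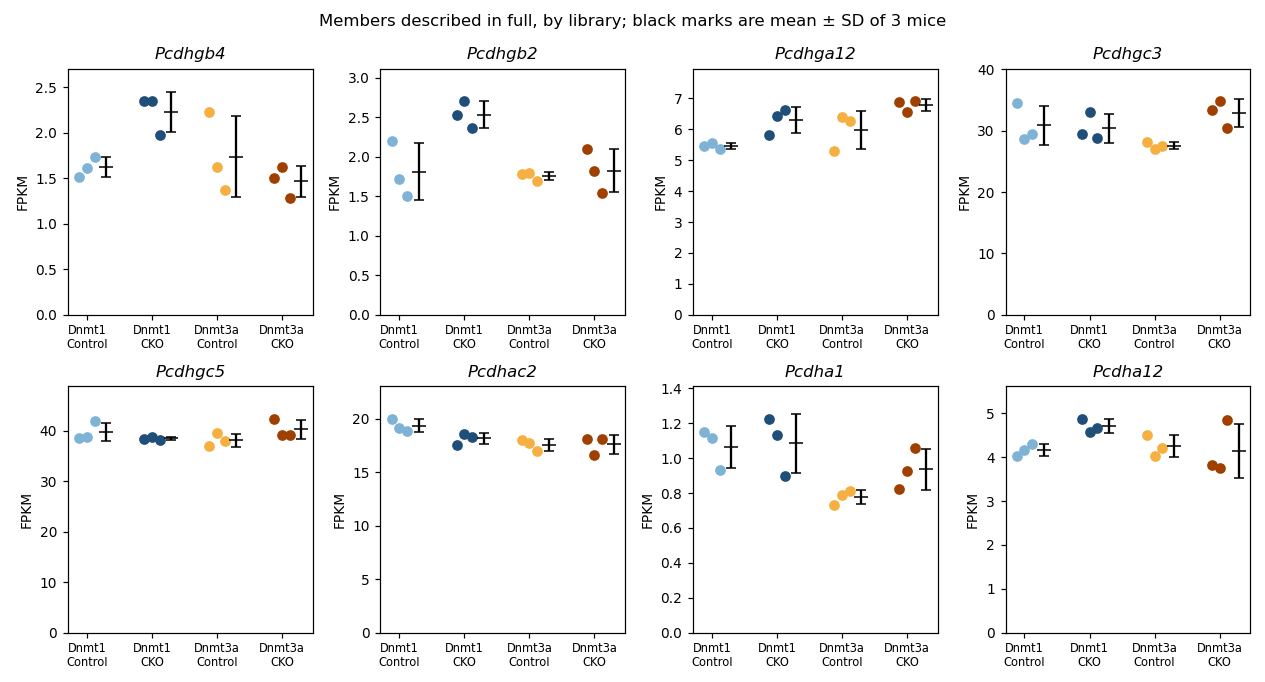
FPKM from 0 of 8 members in each of the 12 libraries by group, with the mean and SD of 3 mice beside the points. Pcdhgb4, Pcdhgb2 and Pcdhga12 are higher in every Dnmt1 CKO library than in any Dnmt1 control, Pcdhgc3 in every Dnmt3a CKO library than in any Dnmt3a control, and Pcdha1 and Pcdhac2 are lower in every Dnmt3a control than in any Dnmt1 control.

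Whether the CKO effect differed between the lines was tested with the interaction in a model of all 12 libraries, as the Dnmt1 effect minus the Dnmt3a effect. Limma called 0 of 56 members, where 2.13% of all rows were called. An unadjusted p under 0.05 was reached by 8 members (background 10.6%), or 7 without Dnmt3a Control replicate 2 (background 9.87%). The count was 5 without Dnmt1 CKO replicate 2 (11.9% of all rows) or Dnmt3a Control replicate 3 (10.96%). It was 10 with median ratio scaling (10.9% of all rows) and 11 with Xist as a covariate (11.4%). The largest difference was that of Pcdhgb4, 0.64 on the log2 scale (SE 0.218, 95% interval 0.16 to 1.12; limma adjusted p = 0.285), and the lowest that of Pcdhgc3, −0.27 (SE 0.109; limma adjusted p = 0.396). Leaving out Dnmt3a Control replicate 2 gave 0.67 and −0.26 (limma adjusted p = 0.352 and 0.542). In the Dnmt3a line Pcdhgb4 was at 2.23, 1.62 and 1.37 FPKM in controls and 1.502, 1.62 and 1.28 in the CKO, which overlap. The smallest adjusted p was that of Pcdhga7, at 0.256, for a difference of 0.33 (SE 0.107), or 0.35 and an adjusted p by limma of 0.304 without that library. Intervals lay within 1 of no difference for 54 members and within 0.5 for 19, so this test was less precise than those within a line.

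Single libraries decided some calls of the difference. Without Dnmt3a Control replicate 2, Pcdhga11 had a difference of 0.46 and a limma adjusted p of 0.0394, against 0.32 and 0.456 with all libraries. Without Dnmt1 Control replicate 2, Pcdhga7 had a difference of 0.41 (limma adjusted p = 0.0678), and without Dnmt3a CKO replicate 3, Pcdha12 had one of 0.33 (limma adjusted p = 0.0908), against 0.22 and 0.591 with all libraries (0.25 and 0.604 without Dnmt3a Control replicate 2). By sign, 38 differences lay above 0 and 18 below, with a median of 0.09 against −0.03 over all rows, of which 41.2% lay above 0. Leaving out 1 library gave medians from 0.05 (Dnmt1 Control replicate 2) to 0.13 (Dnmt3a Control replicate 1). Without Dnmt3a Control replicate 3 the signs stood at 30 above 0 and 26 below. The beta genes had 19 above and 2 below with a median of 0.14, and the A group 10 above and 2 below with a median of 0.22.

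The controls of the lines were set against each other as a measure of how far the members vary without cre. Limma called 0 of 56 members, where 0.00708% of all rows (1 of 14115) were called, and 4 members had an unadjusted p under 0.05 (background 7.74%), or 3 without Dnmt3a Control replicate 2 (background 4.77%) and 8 without Dnmt3a Control replicate 1 (6.28% of all rows). The summed level of all members was 226 ± 7.29 FPKM in Dnmt1 controls and 213 ± 3.34 in Dnmt3a controls (SD, n = 3). The alpha sums of Dnmt3a controls (45.4 to 47.0 FPKM) lay below those of Dnmt1 controls (49.9 to 51.0 FPKM) with a ratio of the means of 0.922 (0.932 without Dnmt3a Control replicate 2), against 0.977 and 0.980 for CKO over control in the Dnmt1 and Dnmt3a lines. The gamma sums of Dnmt3a controls (130 to 133 FPKM) likewise lay below those of Dnmt1 controls (137 to 148 FPKM), with a ratio of the means of 0.935, and the beta sums overlapped. Line, litter and day of work cannot be told apart here.

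Pcdha1, the first alpha gene, had the lowest log2 fold change between the controls. It was at 1.149, 1.11 and 0.929 FPKM in Dnmt1 controls and 0.734, 0.787 and 0.812 in Dnmt3a controls, without overlap, for a log2 fold change of −0.40 (SE 0.095; limma adjusted p = 0.592), or −0.41 without Dnmt3a Control replicate 2. In Dnmt3a CKO mice it was at 0.825, 0.926 and 1.06 FPKM and in Dnmt1 CKO mice at 1.23, 1.13 and 0.899. The highest was that of Pcdhb15, which went from 1.36, 0.911 and 1.31 FPKM to 1.36, 1.42 and 1.37 FPKM (log2 fold change 0.21, SE 0.151; limma adjusted p = 0.789), or 0.19 without that library, and its groups overlapped. With any 1 library left out, the log2 fold change of Pcdhb15 ran from 0.04 to 0.31. Between the controls, 9 of 56 members did not overlap, where 12.6% of all rows did, and 14 without Dnmt3a Control replicate 2, where 20.3% did. With all libraries, there was 1 higher in the Dnmt3a line (3.98% of all rows) and 8 were lower (8.59%). Signs stood at 18 above 0 (39.8% of all rows) and 38 below, at 24 and 32 after scaling by the median ratio, at 22 and 34 without Dnmt3a Control replicate 2 and at 15 and 41 without Dnmt3a Control replicate 3.

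Genes that act on or with the clusters also gave no call. Of 19 listed regulator symbols 18 were found, with Wapl present only under its other name Wapal. Limma tested 17 of these and called 0 in any of the 4 comparisons with all libraries. Among them were Ctcf, at 14.0, 13.4 and 12.7 FPKM in Dnmt1 controls and 12.3, 13.2 and 12.7 in Dnmt1 CKO mice, and the cohesin subunit Rad21, the most abundant over the 12 libraries. Smchd1, a chromatin protein that represses clustered protocadherin genes, had log2 fold changes of −0.12 in the Dnmt1 line and −0.08 in the Dnmt3a line (limma adjusted p = 0.334 and 0.775). Dnmt3b, the methyltransferase tied to promoter methylation of the clusters, was at 0.143 to 0.255 FPKM in all libraries and too low for the test. Dnmt3a itself, at a log2 fold change of −0.78 (SE 0.229; limma adjusted p = 0.657), and Dnmt1, at −0.27 (SE 0.098; limma adjusted p = 0.286), did not pass in the line where they were targeted (without Dnmt3a Control replicate 2 Dnmt3a was at −1.05, limma adjusted p = 0.116, and its difference between lines was called, at 1.03 with an adjusted p of 0.000333), over levels that count the whole gene and not the deleted part. Of 17 partners and processing genes, such as the kinases Ptk2 and Ptk2b that bind the constant domains and the protease Adam10 that sheds gamma proteins, 17 were tested and 0 called. The 10 nonclustered protocadherins, which lie outside the clusters and act as single adhesion genes, were led in level by Pcdh10 and gave 0 calls, with log2 fold changes below 0 for all 10 in the Dnmt1 line (median −0.12; smallest limma adjusted p 0.124, for Pcdh7) and for 7 in the Dnmt3a line (median −0.03).

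The levels of the clusters can be read beside those of cell type markers in the same libraries. In the Dnmt1 line the 9 markers of myelinating oligodendrocytes all fell, with a median log2 fold change of −2.03, and their sum, led by Mbp, was 1727, 1617 and 1465 FPKM in controls and 451, 529 and 501 in the CKO. Of the 6 oligodendrocyte progenitor markers, led by Olig1, 5 fell (sum 132, 124 and 119 FPKM against 76.8, 77.9 and 70.4). The fall was uneven, with CKO over control ratios of 0.998 for Cspg4, 0.811 for Pdgfra, 0.688 for Olig2, 0.678 for Gpr17 and 0.566 for Sox10. For Olig1, where CKO mice of both lines had cre in place of 1 copy, the ratio was 0.437, and 0.714 in the Dnmt3a line. Of the 10 neuron markers 0 were called, and they summed to 2164, 2206 and 2043 FPKM in Dnmt1 controls and 2163, 2203 and 2120 in Dnmt1 CKO mice. The protocadherin sum over the same mice was 235, 222 and 222 FPKM against 224, 240 and 228.

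Of the 21 astrocyte, microglia and endothelial markers 4 were called in the Dnmt1 line, which is 19% beside 3.15% of all rows. Gfap rose among the 8 astrocyte markers (log2 fold change 0.45), C1qa and C1qb rose among the 7 microglia markers (0.34 and 0.42), and Itm2a fell among the 6 endothelial markers (−0.27). In the Dnmt3a line 0 of the 53 tested markers were called. Between the controls 0 were called too, but the 9 myelin markers all had log2 fold changes above 0 in Dnmt3a controls (median 0.34, sum 1972, 2188 and 1842 FPKM), beside the lower alpha and gamma sums given above. The 6 choroid plexus markers all had log2 fold changes below 0 in that comparison (median −0.86), with sums of 277, 120 and 169 FPKM in Dnmt1 controls against the 105, 125 and 6.68 of Dnmt3a controls, which overlap. Without Dnmt3a Control replicate 2 these sums did not overlap (ratio of the means 0.296). The part of any of these cell types in the differences of single members was not tested.

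**Figure D5:**
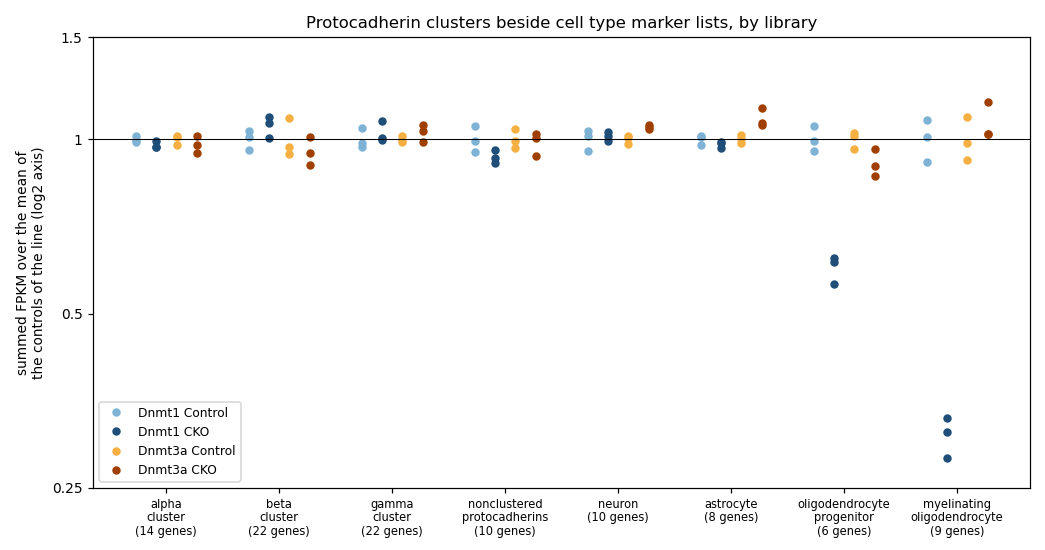
Summed FPKM of the 3 clusters, the nonclustered protocadherins and 4 marker lists in each library, divided by the mean of the controls of the same line, on a log2 axis. The myelinating oligodendrocyte sum of Dnmt1 CKO mice averages 0.308 of its controls and the progenitor sum 0.599, while all cluster sums stay near 1. Within the progenitor sum the ratio is 0.437 for Olig1, whose locus carries cre, 0.811 for Pdgfra and 0.998 for Cspg4.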

How the data were processed

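Polyadenylated RNA from 12 cortices, 3 mice a group, was sequenced by the authors, who aligned reads to mm10 with TopHat and quantified genes with Cufflinks (versions not given in the sources used here). The deposited values are FPKM per gene, 1 column per mouse, so fragment totals were only estimated, and any scaling between libraries is not stated. After removal of 302 exact duplicate rows, 23548 rows remained. Groups came from the labels, and 3 against 3 allows no exact permutation p below 0.1.

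Rows that averaged 0.5 FPKM or more (14115) were tested with limma 3.58.1 in R 4.3.3 on log2(FPKM + 0.1) with a mean-variance trend, a scale that understates fold changes of low genes, with Benjamini-Hochberg adjustment over all rows at 10% FDR. In simulated data shaped on the Dnmt1 line, 95.7% of genes changed by 0.5 on the log2 scale were recovered (66 of 69) and 100% of those changed by 1 or 2. Recovery was not tested for the members alone or for the other comparisons. In the measured Dnmt1 line Pcdhgb2, at a log2 fold change of 0.48, and Pcdhgb4, at 0.43, were not called. Sums and shares are of FPKM, drawn and tabulated in Python 3.11.15. Shared words were counted in GENCODE M21 transcripts, where 56 members matched.

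The members and gene lists were chosen with earlier results of these data known. A marker gene that is not reported here was left out of the list counts and sums. Members described by value in each library of the comparison at hand were, by rule, the highest member of each of the 6 subfamilies, the highest and lowest log2 fold change of each comparison, and members whose CKO and control values did not overlap in both lines (15 members in all). Other genes named, such as Pcdhga7, Pcdhac1, Pcdhgc4, Pcdha8, Pcdhb1, Pcdhb10, Pcdhb22, Pcdhb2, Pcdhb8, Pcdhb21, Pcdhgb1, Pcdhgb8, Pcdh7, Ctcf and Smchd1, were chosen after their values were seen. Alternatives covered pseudocount, filter, scaling, variance model, pairing, Xist as a covariate and each library left out.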

Additional observations from a re-analysis of the deposited data

Results flagged for a closer look

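With all libraries no clustered protocadherin had a CKO effect that differed between the lines at 10% FDR, and none lay apart from its controls in opposite directions. Without Dnmt3a Control replicate 2 Pcdhb22 lay so apart, with a difference between lines of 0.26 (limma adjusted p = 0.459), and Pcdhga11 was called, at 0.46 (limma adjusted p = 0.0394). Leaving out Dnmt1 Control replicate 2 or Dnmt3a CKO replicate 3 also gave 1 call each. Groups of 3 mice are too small for the search for single outlying samples. Among the marker genes set beside the clusters, 13 had an effect that differed between the Dnmt1 and Dnmt3a lines by limma's interaction test, all lower in the Dnmt1 line. Among markers of myelinating oligodendrocytes, the difference on the log2 scale was −1.79 for Mbp, −2.02 for Mag, −2.08 for Mog, −2.24 for Mobp, −1.38 for Cnp, −2.15 for Mal, −2.53 for Opalin, −1.76 for Cldn11 and −2.01 for Ermn. Among progenitor markers it was −0.64 for Gpr17, −0.70 for Olig1 and −0.86 for Sox10, and among astrocyte markers it was −0.21 for Slc1a2, for which the limma adjusted p of 0.0975 became 0.167 without Dnmt3a Control replicate 2.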

How the results depend on the processing

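The count of members called was 0 in all 4 comparisons and stayed 0 in most of the alternatives. Over 4728 fits of single members under alternatives, 6 passed 10% FDR. In the Dnmt1 line 1 member was called with limma's robust variance estimate and 1 after quantile normalization (Pcdhgb4 in both), and leaving out 1 library gave 0 to 1 members (Pcdhgb2 without Dnmt1 Control replicate 1). For the difference between lines, leaving out 1 library gave 0 to 1 members: Pcdhga7 without Dnmt1 Control replicate 2, Pcdhga11 without Dnmt3a Control replicate 2 and Pcdha12 without Dnmt3a CKO replicate 3. The log2 ratio of the alpha sums, −0.03 in the Dnmt1 line, was 0.00064 without the most abundant member Pcdhac2, and between the controls it was −0.12, or −0.093 after median ratio scaling. Of 175 alternatives to these counts and sums, 167 stayed close to the value reported (a count within 1.5 times, a log2 ratio of sums by less than 1 SD between replicates) and 8 moved, and the cause was not tested. Some of the 175 could not move. A stricter FDR cannot add to a count of 0, and summing rows of a symbol left the cluster sums unchanged, since no member had several rows. Members kept 1 sign in every alternative for 33 of 56 in the Dnmt1 line, 33 in the Dnmt3a line, 36 for the difference and 30 between the controls.

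Replicate numbers did not pair the mice: the correlation of same-numbered deviations was −0.06, 0.04 and −0.03 in the Dnmt1 line and 0.02, −0.08 and −0.004 in the Dnmt3a line. With the replicate block 0 members were called in any comparison, and the rows called in the Dnmt1 line went from 444 to 162. That background count was 263 at 5% FDR and 199 to 266 without Dnmt1 Control replicate 2 or any 1 of the Dnmt1 CKO libraries. In the Dnmt3a line it went from 2 to 17, and between the controls from 1 to 7, with no filter on low values, and to at most 6 under the other alternatives.

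The filter at 0.5 FPKM left out 2 members, and with no filter all 58 were tested. For Pcdhb2 and Pcdhb21, beta members of low level, the estimated counting error (11.3 and 9.81%) was near the observed variation (9.97 and 10.4%). In Pcdhb8, Pcdhb4 and Pcdhb1, also low, the observed variation was 2.45, 1.67 and 1.71 times the counting error. The part of depth was not tested. Alpha and gamma members carry in addition the uncertainty of shared sequence.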
